A study of Mus musculus with 24 samples.

Results

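The genes described here are 9 interferon-stimulated genes, chosen by name: Oasl2, Oas3, Bst2, Isg15, Isg20, Ifit1, Ifit3, Irf7 and Irf8. They are 9 of the 55487 genes kept from the count table, and all 9 were among the 21286 genes with enough reads to be tested. The 9 genes and the gene lists below were chosen with earlier results of these data known. Counts set beside the share of all genes are therefore descriptions and no test of an excess. The series holds 24 RNA-seq libraries of lymphoid cells that were sorted out of mouse small intestine lamina propria at 8 to 12 weeks of age, 3 in each of 8 groups. The groups are 2 genotypes in 4 sorted populations, labelled ILC1, NKp46, CCR6 and DN. DKO animals carried floxed Nr1d1 and Nr1d2, which encode the clock repressors REV-ERBα and REV-ERBβ, with Cre recombinase under Vav1 control. The WT groups are littermates that carried the same floxed genes, so both genotypes share the floxed alleles. Vav1-Cre is active across blood cells, so the deletion was not limited to the sorted cells. ILC1 are innate lymphoid cells that make interferon gamma, and ILC3 are those that make interleukins 17 and 22. NKp46 names the protein of Ncr1, and CCR6 a chemokine receptor that marks ILC3 resembling lymphoid tissue inducer cells. What DN stands for is not given in the sources used here. The strain is not given there, nor whether the libraries of a group came from separate mice, so p-values reflect only how far these libraries scatter, which may be technical.

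Type I interferons act through the receptor IFNAR, the kinases JAK1 and TYK2 and the factor ISGF3, which contains STAT2 and IRF9. ISGF3 binds a DNA element named the interferon-stimulated response element (ISRE) near the start of many antiviral genes. Genes induced by interferon gamma often carry another element, named GAS. Resting lymphocytes keep a low level of these transcripts, which rises when interferon is made, as during infection of the gut.

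Among the 9 genes, Oasl2 and Oas3 belong to the 2′-5′-oligoadenylate synthetase family, whose enzymes sense double-stranded RNA and activate RNase L. Bst2 encodes tetherin, which holds budding virus particles at the cell surface. Isg15 encodes a ubiquitin-like protein that is joined to other proteins, and Isg20 encodes an exonuclease that degrades RNA. Ifit1 and Ifit3 encode partner proteins that bind foreign RNA lacking the cap methylation of the host. Irf7 encodes the factor that amplifies type I interferon transcription, and Irf8 encodes a factor of myeloid, dendritic and B cell development that interferon gamma also induces.

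Total counts ran from 12763228 to 84395154 per library. WT ILC1 library 2 stood apart, with the lowest total, 84.1% of counts on protein-coding genes against 91.6 to 94.9% elsewhere, and 11.10% on ribosomal RNA against 1.61 to 4.80%. Ncr1 and Ccr6 followed the population names, with Ncr1 at 397 CPM (counts per 1e+06 counts) or more in every ILC1 and NKp46 library and Ccr6 at 702 CPM or more in every CCR6 library. Nr1d1 was higher in DKO than in WT libraries of all 4 populations, for example 1061 ± 87.9 against 601 ± 56.4 CPM in NKp46 (SD, n = 3 each). Counts per gene do not show whether an exon is missing, so they do not check the deletion, and every direction below rests on the genotype label.

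The promoters differed in whether they carried an ISRE. The 250 bases upstream of the RefSeq start (build GRCm38.p6) are printed 5′ to 3′ on the strand of the gene for Oasl2, whose difference between DKO and WT passed the test described below in all 4 populations, for Bst2 and Oas3, which passed it in 1 population each, and for Isg15, which had the most ISRE matches and passed it in none. Capitals mark matches to the ISRE core, which is GAAA, any 2 bases and GAAA again, and matches that overlap run together.
Oasl2 (chr5:114896684-114896933, plus strand): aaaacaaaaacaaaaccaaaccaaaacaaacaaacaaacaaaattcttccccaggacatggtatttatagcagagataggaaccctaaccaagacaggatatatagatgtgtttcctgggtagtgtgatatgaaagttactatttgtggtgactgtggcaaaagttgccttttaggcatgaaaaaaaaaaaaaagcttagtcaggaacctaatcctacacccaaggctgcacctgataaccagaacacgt
Oas3 (chr5:120777660-120777909, minus strand): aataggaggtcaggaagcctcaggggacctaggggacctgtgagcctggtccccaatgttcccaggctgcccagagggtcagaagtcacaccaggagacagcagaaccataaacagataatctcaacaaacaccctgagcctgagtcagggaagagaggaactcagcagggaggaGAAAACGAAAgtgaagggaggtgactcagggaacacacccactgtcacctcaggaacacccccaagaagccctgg
Bst2 (chr8:71537473-71537722, minus strand): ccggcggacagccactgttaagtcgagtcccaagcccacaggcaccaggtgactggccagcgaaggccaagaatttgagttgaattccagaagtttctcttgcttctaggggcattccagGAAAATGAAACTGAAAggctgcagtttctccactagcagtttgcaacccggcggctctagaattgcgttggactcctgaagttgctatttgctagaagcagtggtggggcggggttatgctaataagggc
Isg15 (chr4:156200819-156201068, minus strand): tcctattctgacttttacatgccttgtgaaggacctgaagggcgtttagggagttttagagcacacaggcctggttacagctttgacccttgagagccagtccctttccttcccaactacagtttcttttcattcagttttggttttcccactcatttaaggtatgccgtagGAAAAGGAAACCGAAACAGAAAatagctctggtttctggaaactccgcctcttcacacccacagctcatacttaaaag

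The ISRE core was searched on both strands from 250 bases before to 50 bases after the start. It was found for 5 of the 9 genes, namely Oas3, Bst2, Isg15, Ifit1 and Ifit3, against 3.44% of the 32851 RefSeq windows of this length. Isg15 held 3 overlapping matches that began 78, 72 and 66 bases before the start. Bst2 held 2 overlapping matches that began 130 and 124 bases before it. Oas3 held 1 match, 75 bases before the start. Ifit1 and Ifit3 each held 2, read on the opposite strand. The GAS letters TTCNNNGAA were found for Bst2, Isg20 and Irf8, against 8.3% of all windows, and in Bst2 this match overlaps the first ISRE match. The REV-ERB half-site AGGTCA was found for Oas3 alone, against 16.3% of all windows. The full REV-ERB element, AAN followed by TAGGTCA, was found for 0 of 9 genes, against 0.219% of all windows, and the E-box CACGTG for 0 of 9, against 7.15%. Oasl2 and Irf7 held none of these letters in this window. A match is a description of the sequence, and a missing one says only that these letters are not in this window.

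**Figure D1:**
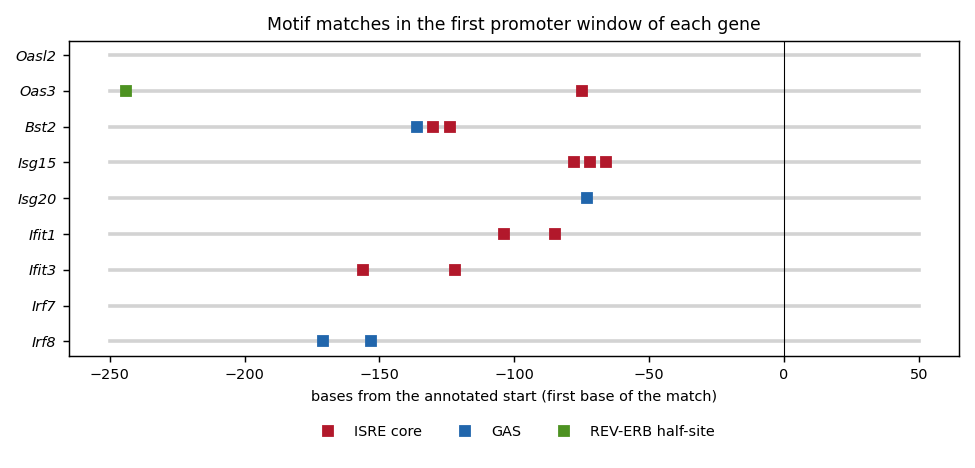
Motif matches in the first RefSeq promoter window of each of the 9 genes, by distance in bases from the annotated start, where each square is the first base of a match and the grey line spans 250 bases before to 50 after the start. ISRE core matches lie before the start in Oas3, Bst2, Isg15, Ifit1 and Ifit3, and none of the motifs lies in the windows of Oasl2 or Irf7.

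Oasl2 had more reads in every DKO library than in any WT library of the same population. In ILC1 the level was 105, 76.1 and 116 CPM in DKO libraries, against 45.0, 30.3 and 34.6 CPM in WT libraries. In NKp46 it was 161, 139 and 135 CPM in DKO libraries, against 52.3, 59.1 and 38.2 CPM in WT libraries. In CCR6 it was 98.7, 74.6 and 93.2 CPM in DKO libraries, against 25.6, 31.1 and 30.0 CPM in WT libraries. The groups did not overlap in these populations, nor in DN, where DKO libraries had 102, 101 and 130.5 CPM and WT libraries 26.2, 33.6 and 37.0 CPM. The log2 fold change, DKO over WT, was 1.43 ± 0.20 in ILC1 cells and 1.54 ± 0.20 in NKp46 (edgeR's quasi-likelihood test, adjusted p = 1.8e-04 and 3.4e-05). It was 1.62 ± 0.20 in CCR6 and 1.79 ± 0.20 in DN (edgeR adjusted p = 1.1e-05 and 4.8e-06). Errors on log2 fold changes are standard errors here and below, and genes with an adjusted p below 0.05 are called. A fit of the ILC1 libraries alone lost the call at the same size, with a log2 fold change of 1.42 and an edgeR adjusted p of 0.21. The fold in DN was the highest of the 4, but a test that the 4 fold changes are equal gave an edgeR adjusted p of 0.91.

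Oasl2 was the one member called in ILC1, where 1.06% of all tested genes were called. In each of the other populations 3 of the 9 members were called, Oasl2 higher and 2 others lower: Irf7 and Irf8 in NKp46, Bst2 and Irf8 in CCR6, and Oas3 and Isg20 in DN. The share of all tested genes called was 4.16% in NKp46, 3.97% in CCR6 and 2.83% in DN. Genes called higher made up 0.780% for ILC1, 1.99% for NKp46, 1.93% for CCR6 and 1.49% for DN. Genes called lower made up 0.277% for ILC1, 2.17% for NKp46, 2.04% for CCR6 and 1.34% for DN. Libraries of both genotypes that did not overlap, with DKO higher, as for Oasl2, were found for 6.53% of all tested genes for ILC1, 9.76% for NKp46, 11.5% for CCR6 and 11.2% for DN. Oasl2 was 1 of 59 genes called higher in all 4 populations, 0.277% of those tested, and no member was among the 21 called lower in all 4, 0.0987%. The median log2 fold change of the 9 members was -0.06 for ILC1, 0.29 for NKp46, -0.41 for CCR6 and -0.59 for DN. The median of all tested genes lay between -0.04 and 0.00 in these comparisons.

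**Figure D2:**
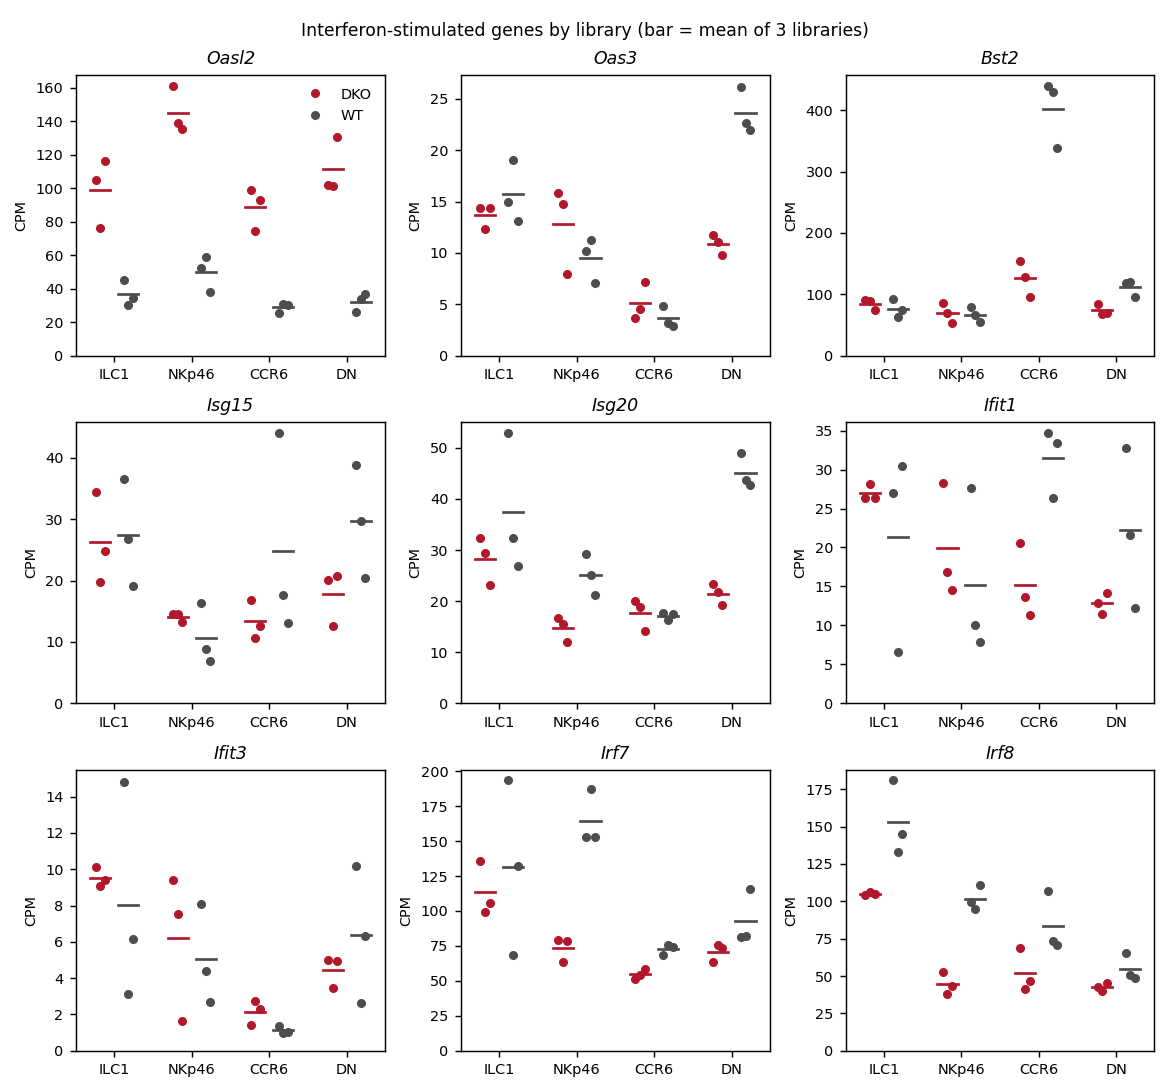
Level of each of the 9 genes in CPM (y axis from 0) in every library, by population (x axis), with DKO in red and WT in grey and a bar at the mean of 3 libraries. All DKO points of Oasl2 lie above the WT points of the same population, and the WT CCR6 points of Bst2 lie at 338 to 439 CPM, above every other library.

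Oas3, the other synthetase gene, passed the test in DN alone, where it was lower. There it had 11.7, 11.1 and 9.78 CPM in DKO libraries, against 26.2, 22.6 and 22.0 CPM in WT libraries. These groups did not overlap, and Oas3 fell in DN by 1.13 ± 0.29 on the log2 scale (edgeR adjusted p = 0.037). Leaving out any 1 of these 6 libraries ended the call, with edgeR adjusted p from 0.084 to 0.18, as did keeping the genes with few reads (0.11). In the other populations the libraries of both genotypes overlapped. The log2 fold changes there were -0.20 ± 0.29 in ILC1, 0.43 ± 0.29 in NKp46 and 0.49 ± 0.29 in CCR6 (edgeR adjusted p = 0.82, 0.51 and 0.57). The test that the 4 effects on Oas3 are equal gave an edgeR adjusted p of 0.11, and DESeq2 gave 0.0074.

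Bst2, the tetherin gene, differed between genotypes in CCR6 cells. There it had 154, 129 and 95.4 CPM in DKO libraries, against 439, 430.5 and 338 CPM in WT libraries. Every DKO library was far below the lowest WT library, and the log2 fold change was -1.68 ± 0.20 (edgeR adjusted p = 9.6e-06). In DN the libraries did not overlap either, with 84.8, 67.9 and 69.8 CPM in DKO and 118, 120.2 and 96.4 CPM in WT. That log2 fold change of -0.59 ± 0.20 did not pass the test (edgeR adjusted p = 0.14), but it passed in a fit of the DN libraries alone (0.031). In ILC1 the level was 91.2, 89.0 and 74.2 CPM in DKO libraries and 92.9, 62.5 and 73.9 CPM in WT libraries. In NKp46 it was 86.3, 70.3 and 53.7 CPM in DKO libraries and 80.1, 66.3 and 54.9 CPM in WT libraries. Both pairs of groups overlapped, with log2 fold changes of 0.15 ± 0.20 and 0.06 ± 0.20 (edgeR adjusted p = 0.79 and 0.93).

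The effect on Bst2 differed among the populations, with an edgeR adjusted p of 0.0018 for the test that the 4 effects are equal. Of the 9 members it was the one called by that test, which called 1.37% of all tested genes. The effect in ILC1 minus that in CCR6 was 1.82 ± 0.28 on the log2 scale (edgeR adjusted p = 9.5e-04). The effect in NKp46 minus that in CCR6 was 1.74 ± 0.28 (edgeR adjusted p = 0.0023). Between CCR6 and DN the difference of -1.09 ± 0.28 did not pass (edgeR adjusted p = 0.19). With the WT level 403 ± 56.1 CPM in CCR6 cells, the DKO level there, 126 ± 29.3 CPM, lay close to that of WT DN cells, 112 ± 13.1 CPM (SD, n = 3 each), a pair that was not tested.

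Irf7 and Irf8, the transcription factors, were both lower in NKp46 cells of DKO mice. Irf8 had 52.6, 38.0 and 43.3 CPM in DKO NKp46 libraries, against 99.5, 94.6 and 111 CPM in WT NKp46 libraries. Irf7 had 78.9, 63.3 and 78.7 CPM in DKO NKp46 libraries, against 153, 187 and 153 CPM in WT NKp46 libraries. Neither gene's groups overlapped. Irf8 fell in NKp46 by 1.19 ± 0.19 on the log2 scale (edgeR adjusted p = 4.8e-04). Irf7 fell in NKp46 by 1.16 ± 0.24 on that scale (edgeR adjusted p = 0.0051).

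Within each of the other 3 populations, Irf8 was also lower in every DKO library than in any WT library of the same population. The test that the 4 effects on Irf8 are equal gave an edgeR adjusted p of 0.36. In CCR6 it had 69.0, 41.1 and 46.4 CPM in DKO libraries, against 107, 73.5 and 70.9 CPM in WT libraries. The log2 fold change in CCR6 was -0.68 ± 0.19 (edgeR adjusted p = 0.043). The call was lost without DKO CCR6 library 2 or 3, or WT CCR6 library 1 or 2, with edgeR adjusted p of 0.31, 0.2, 0.31 and 0.056, and in a fit of the CCR6 libraries alone, with 0.09. In ILC1 Irf8 had 104, 106 and 105 CPM in DKO libraries, against 181, 133 and 145 CPM in WT libraries. In DN it had 42.5, 39.7 and 45.2 CPM in DKO libraries, against 65.4, 50.9 and 48.8 CPM in WT libraries. These log2 fold changes of -0.54 ± 0.19 and -0.37 ± 0.19 did not pass the test (edgeR adjusted p = 0.21 and 0.45). Groups that do not overlap and are lower in DKO were found for 4.26% of all tested genes for ILC1, 11.7% for NKp46, 13.3% for CCR6 and 12.8% for DN.

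Irf7 outside NKp46 gave log2 fold changes of -0.22 ± 0.23 in ILC1, -0.41 ± 0.23 in CCR6 and -0.39 ± 0.23 in DN, none of which passed (edgeR adjusted p = 0.74, 0.52 and 0.57). WT ILC1 libraries spread widely for Irf7, at 194, 68.5 and 132 CPM, against 136, 99.1 and 106 CPM in DKO ILC1 libraries. The lowest of them was the WT ILC1 library that stood apart. The tests that the 4 effects are equal gave an edgeR adjusted p of 0.4 for Irf7. Irf7 shares 45 exon bases with Phrf1 on the opposite strand, and the kit does not mark strand. Phrf1 had log2 fold changes of -0.07 to 0.20 (edgeR adjusted p of 0.7 to 0.97), and its part in the Irf7 counts was not tested.

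Isg20, the exonuclease gene, fell in DN. It had 23.4, 21.8 and 19.2 CPM in DKO DN libraries, against 48.9, 43.8 and 42.8 CPM in WT DN libraries. The groups stood well apart, with a log2 fold change of -1.07 ± 0.22 (edgeR adjusted p = 0.0063). Without DKO DN library 3 the edgeR adjusted p was 0.056. In NKp46 Isg20 had 16.6, 15.5 and 12.0 CPM in DKO libraries, against 29.3, 25.1 and 21.1 CPM in WT libraries. These groups did not overlap either, but the log2 fold change of -0.77 ± 0.22 missed the threshold with edgeR (adjusted p = 0.054) and passed with DESeq2 (adjusted p = 0.012). The log2 fold changes in ILC1 and CCR6 were -0.40 ± 0.22 and 0.05 ± 0.22 (edgeR adjusted p = 0.44 and 0.99).

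Isg15, Ifit1 and Ifit3, which as textbook interferon-induced genes carry 2 or 3 ISRE cores each in their windows, were called in none of the 4 comparisons by edgeR, DESeq2 or limma voom. At an unadjusted p under 0.05 edgeR picked Isg15 and Ifit1 in CCR6 alone. In ILC1, NKp46 and DN the log2 fold changes of Isg15 were -0.06, 0.40 and -0.73 (edgeR adjusted p = 0.97, 0.7 and 0.49). Those of Ifit1 were 0.33, 0.39 and -0.79 (edgeR adjusted p = 0.81, 0.76 and 0.56), and those of Ifit3 0.24, 0.29 and -0.52 (0.91, 0.88 and 0.86). Isg15 in CCR6 had 16.9, 10.7 and 12.6 CPM in DKO libraries, against 44.0, 17.6 and 13.1 CPM in WT libraries, and its log2 fold change was -0.89 ± 0.39 (edgeR adjusted p = 0.3). The WT mean there rested on 1 high library, and the groups overlapped. Ifit1 in CCR6 had 20.6, 13.7 and 11.3 CPM in DKO libraries, against 34.7, 26.3 and 33.4 CPM in WT libraries. Those groups did not overlap, and the log2 fold change was -1.05 ± 0.47 (edgeR adjusted p = 0.31), while a fit of the CCR6 libraries alone gave 0.021.

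Ifit3 had few reads, down to 39 in a library, and was lowest in CCR6 cells. There it had 1.42, 2.74 and 2.31 CPM in DKO libraries, against 1.37, 0.989 and 1.04 CPM in WT libraries, a log2 fold change of 0.93 ± 0.59 (edgeR adjusted p = 0.6). The direction was opposite to that of Ifit1 in the same cells, and neither passed the test. In ILC1 both IFIT genes varied most among WT libraries. Ifit3 had 10.1, 9.07 and 9.43 CPM in DKO ILC1 libraries, against 14.8, 3.13 and 6.17 CPM in WT ILC1 libraries. Ifit1 had 26.4, 28.1 and 26.3 CPM in DKO ILC1 libraries, against 27.0, 6.59 and 30.4 CPM in WT ILC1 libraries. The low values of both came from the WT ILC1 library that stood apart, and without it the log2 fold changes turned to -0.14 for Ifit3 and -0.09 for Ifit1.

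Reads of Ifit3 are not certain to be its own. Its longest transcript of 1745 bases shares 1672 bases, 95.8%, with Ifit3b at 95% identity or more. Ifit3b was at 0.365 CPM in DKO and 0.195 CPM in WT CCR6 cells, and at 2.14 and 4.34 CPM in DKO and WT ILC1 cells (means, n = 3 each). Isg15 shares 454 of 756 bases with the predicted gene AC151275.1, and Ifit1 shares 397 of 2656 with Ifit1bl1 and 394 with Ifit1bl2. How reads that map to several places were counted is not given in the sources used here, so the values of these 3 genes are uncertain to that extent.

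**Figure D3:**
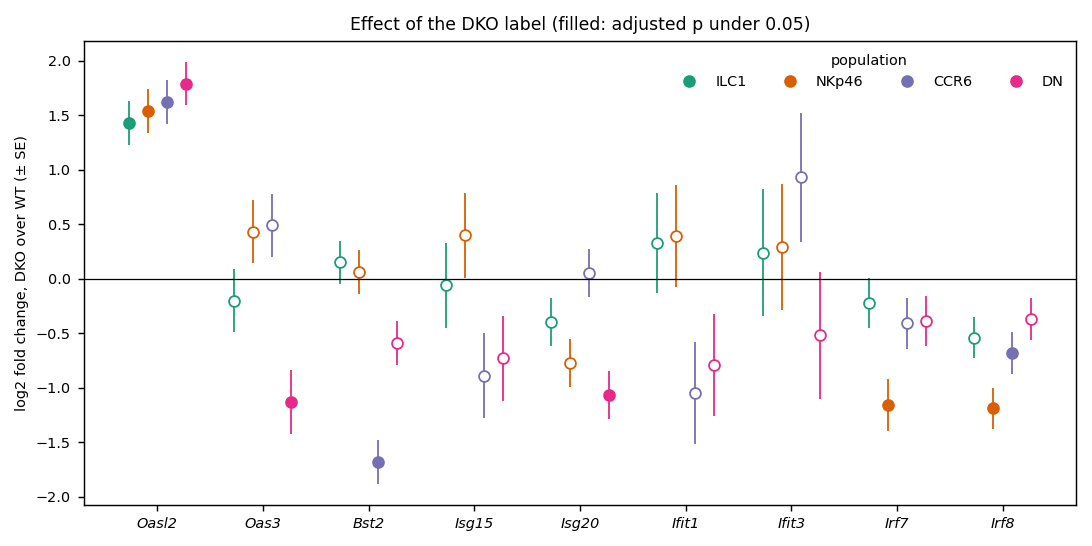
Log2 fold change of each gene, DKO over WT, with its standard error (y axis), by gene (x axis) and population (colour), from edgeR's quasi-likelihood fit to all 24 libraries, where filled points have an adjusted p under 0.05. Oasl2 is filled in all 4 populations at 1.43 to 1.79, the other filled points are Bst2 and Irf8 in CCR6, Irf7 and Irf8 in NKp46 and Oas3 and Isg20 in DN, and all of these lie below 0.

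Among the WT populations the 9 genes did not share an order. Per kilobase of merged exon, Bst2 was the highest of the 9 in every WT population, from 74.3 ± 14.0 CPM per kb in NKp46 to 446 ± 62.1 CPM per kb in CCR6 (SD, n = 3 each). The second highest per kilobase was Isg15 in ILC1, CCR6 and DN and Irf7 in NKp46. The lowest was Oas3 in all 4 WT populations, from 0.517 ± 0.148 CPM per kb in CCR6 to 3.34 ± 0.322 CPM per kb in DN. The second and the lowest rank depend on the length used. Merged exons cover 7069 bases for Oas3 and 3776 for Irf7, against 4720 and 3240 in their longest transcripts.

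Bst2 in WT was highest in CCR6, at 403 ± 56.1 CPM, followed by DN at 112 ± 13.1, ILC1 at 76.5 ± 15.3 and NKp46 at 67.1 ± 12.6 CPM. WT ILC1 against WT CCR6 gave a log2 fold change of -2.40 ± 0.21, WT NKp46 against WT CCR6 -2.59 ± 0.21, and WT CCR6 against WT DN 1.85 ± 0.20 (edgeR adjusted p = 1.4e-08, 1.9e-08 and 2.0e-06). WT ILC1 and WT NKp46 did not differ beyond their spread (edgeR adjusted p = 0.59), and WT ILC1 against WT DN missed the threshold (0.1), which it passed without the filter on low counts (0.037) and without WT ILC1 library 1 (0.047). WT NKp46 against WT DN passed at an adjusted p of 0.045, but leaving out any 1 of these 6 libraries except WT NKp46 library 1 ended that call, with edgeR adjusted p of 0.052 to 0.26.

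Oas3, Isg20 and Ifit3 were lowest in WT CCR6 cells, the cells with the most Bst2. Oas3 was at 23.6 ± 2.27 CPM in WT DN, 15.7 ± 3.05 in WT ILC1, 9.51 ± 2.21 in WT NKp46 and 3.65 ± 1.04 CPM in WT CCR6. WT CCR6 was below each of the others for Oas3, with log2 fold changes of 2.10 ± 0.30 for ILC1 against CCR6, 1.38 ± 0.30 for NKp46 against CCR6 and -2.69 ± 0.31 for CCR6 against DN (edgeR adjusted p = 2.5e-05, 0.0045 and 4.0e-06). WT ILC1 against WT DN (0.24) and against WT NKp46 (0.13) did not pass with edgeR, and DESeq2 called the second (0.048). WT NKp46 against WT DN gave -1.31 ± 0.30 (edgeR adjusted p = 0.013), lost without WT NKp46 library 3 (0.11) or WT DN library 1 (0.059).

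Isg20 was at 45.2 ± 3.30 CPM in WT DN, 37.4 ± 13.8 in WT ILC1, 25.2 ± 4.11 in WT NKp46 and 17.1 ± 0.760 CPM in WT CCR6. WT ILC1 was above WT CCR6 by a log2 fold change of 1.13 ± 0.22, and WT CCR6 was below WT DN at -1.40 ± 0.22 (edgeR adjusted p = 8.5e-04 and 2.7e-04). A fit of the WT ILC1 and WT CCR6 libraries alone gave 0.053 for the first of these. Neighbours in this order did not pass with edgeR, at adjusted p of 0.51 for ILC1 against DN, 0.11 for ILC1 against NKp46 and 0.18 for NKp46 against CCR6. ILC1 against NKp46 passed with DESeq2 (0.039) and without WT ILC1 library 3 (0.032). WT NKp46 against WT DN gave an edgeR adjusted p of 0.039, lost on leaving out any 1 of the 6 libraries (0.059 to 0.22) and without the filter (0.078).

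Ifit3 was at 8.05 ± 6.07 CPM in WT ILC1, 6.39 ± 3.79 in WT DN, 5.06 ± 2.76 in WT NKp46 and 1.13 ± 0.206 CPM in WT CCR6. WT ILC1 against WT CCR6 gave a log2 fold change of 2.84 ± 0.62 (edgeR adjusted p = 0.0021). WT NKp46 against WT CCR6 at 2.16 ± 0.61 and WT CCR6 against WT DN at -2.50 ± 0.61 also passed (edgeR adjusted p = 0.033 and 0.015). The first was lost on leaving out any 1 of its libraries except WT NKp46 library 3 (0.063 to 0.21) and with limma voom (0.055), the second without WT CCR6 library 2 (0.085) or 3 (0.081) or WT DN library 1 (0.1). Comparisons among the 3 populations above CCR6 did not pass, with edgeR adjusted p of 0.5, 0.8 and 0.9.

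Irf8 and Irf7 were higher in WT ILC1 and WT NKp46 than in the other 2 WT populations on average. Irf8 was at 153 ± 24.5 CPM in WT ILC1, 102 ± 8.49 in WT NKp46, 83.8 ± 20.1 in WT CCR6 and 55.0 ± 9.03 CPM in WT DN. WT ILC1 was above WT DN by a log2 fold change of 1.48 ± 0.19 and above WT CCR6 by 0.87 ± 0.19 (edgeR adjusted p = 1.8e-05 and 0.002). WT NKp46 against WT DN gave 0.89 ± 0.19 (edgeR adjusted p = 0.0088), lost without WT DN library 2 (0.067) or 3 (0.061). WT ILC1 against WT NKp46 passed at 0.049, and leaving out any 1 of these libraries except WT ILC1 library 2 ended the call (0.061 to 0.17), as did dropping the filter (0.081) or fitting these groups alone (0.14). For Irf8, WT NKp46 against WT CCR6 did not pass (0.54). WT CCR6 against WT DN, at 0.61 ± 0.19, missed the threshold (0.064) but passed with DESeq2 (0.017), with its size factors in edgeR (0.048), with limma voom (0.049) and without the filter (0.028).

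Irf7 was at 164 ± 19.6 CPM in WT NKp46, 132 ± 62.8 in WT ILC1, 93.1 ± 19.6 in WT DN and 72.8 ± 4.02 CPM in WT CCR6. WT NKp46 was above WT CCR6 by a log2 fold change of 1.17 ± 0.24 (edgeR adjusted p = 0.0025). WT ILC1 against WT CCR6 passed too, at 0.86 ± 0.24 (edgeR adjusted p = 0.013), but these libraries overlapped, and the call was lost without WT ILC1 library 1 (0.16) or WT CCR6 library 1 (0.055), and in a fit of these groups alone (0.16). WT NKp46 against WT DN, at 0.82 ± 0.24, missed the threshold with edgeR (adjusted p = 0.066), but passed with DESeq2 (0.016), limma voom (0.014), without the filter (0.0069) and in a fit of these groups alone (0.018). The neighbours ILC1 and NKp46, ILC1 and DN, and CCR6 and DN did not pass (edgeR adjusted p = 0.43, 0.22 and 0.5). Without WT ILC1 library 2, the library that stood apart, ILC1 against DN passed at 0.81 (edgeR adjusted p = 0.0054).

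Oasl2, Isg15 and Ifit1 gave 3 calls among the WT populations. Oasl2 was at 49.9 ± 10.6 CPM in WT NKp46, 36.6 ± 7.53 in WT ILC1, 32.3 ± 5.53 in WT DN and 28.9 ± 2.87 CPM in WT CCR6. One of its 6 WT comparisons passed, NKp46 against CCR6 at 0.79 ± 0.19 (edgeR adjusted p = 0.014), and it was lost without WT NKp46 library 1 (0.07) or 2 (0.11) or WT CCR6 library 1 (0.091). The other 5 had edgeR adjusted p of 0.096 to 0.79, the lowest of them, NKp46 against DN, passing with DESeq2 (0.032) and without WT NKp46 library 3 (0.049). Isg15 was at 29.7 ± 9.16 CPM in WT DN, 27.5 ± 8.75 in WT ILC1, 24.9 ± 16.7 in WT CCR6 and 10.7 ± 5.01 CPM in WT NKp46. WT ILC1 was above WT NKp46 for Isg15 at 1.36 ± 0.40, lost without WT ILC1 library 1 (0.11) or WT NKp46 library 2 (0.13) or 3 (0.14), with limma voom (0.062) and in a fit of these groups alone (0.15), and WT NKp46 was below WT DN at -1.47 ± 0.40 (edgeR adjusted p = 0.03 and 0.046). The second was lost without WT NKp46 library 2 or 3 or WT DN library 1 or 2 (0.13 to 0.24). Isg15 in WT NKp46 against WT CCR6, at -1.22 ± 0.40, missed the threshold (edgeR adjusted p = 0.078) but passed with DESeq2 (0.023), without the filter (0.011) and without WT NKp46 library 1 (0.03) or WT CCR6 library 3 (0.028). Its comparisons of ILC1 with CCR6, ILC1 with DN and CCR6 with DN gave 0.14, -0.11 and -0.26 on the log2 scale (edgeR adjusted p = 0.85, 0.92 and 0.84). Ifit1 was at 31.5 ± 4.53 CPM in WT CCR6, 22.2 ± 10.3 in WT DN, 21.4 ± 12.9 in WT ILC1 and 15.2 ± 10.9 CPM in WT NKp46, and none of its 6 comparisons passed with edgeR (adjusted p of 0.25 to 0.98). The lowest of these, WT NKp46 against WT CCR6 at -1.05 ± 0.47, passed with limma voom (0.04) and without WT NKp46 library 1 (0.036).

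Counted over the 9 genes, 6 passed the test in WT ILC1 against WT CCR6, where 19.3% of all tested genes were called. Between WT NKp46 and WT CCR6 5 were called against 6.23% of all genes, and between WT CCR6 and WT DN 4 against 5.84%. Between WT NKp46 and WT DN 5 were called against 2.97%, a count that ran from 1 to 6 when single libraries were left out and was 7 with DESeq2. Between WT ILC1 and WT NKp46 2 were called against 10.7%, and between WT ILC1 and WT DN 1 against 7.61%. These comparisons share libraries with each other.

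Some of the genes were highest in the library of the same number in most groups. The labels number the libraries of a group 1 to 3. The library numbered 1 was the highest of its group for Isg20 in 8 of 8 groups, and for Isg15, Bst2 and Ifit3 in 7 of 8 groups each. Isg15, Isg20 and Ifit3 were highest there in all 4 WT groups. For Irf8 and Ifit1 the number 1 library was highest in 5 of 8 groups each, and for Oas3 in 4 of 8. For Oasl2 it was highest in 3 of 8 groups, and for Irf7 in 3 of 8. The share of all tested genes with such a pattern was not counted, so it is not known to be particular to these genes. The labels do not say that a number marks a mouse, litter or day, and what the libraries numbered 1 share was not tested. Between the libraries numbered 2 and 3 alone, a comparison chosen after this pattern was seen, the calls between DKO and WT for Oasl2, Bst2, Irf7, Irf8 and Isg20 held, and that for Oas3 in DN did not (edgeR adjusted p = 0.28).

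**Figure D4:**
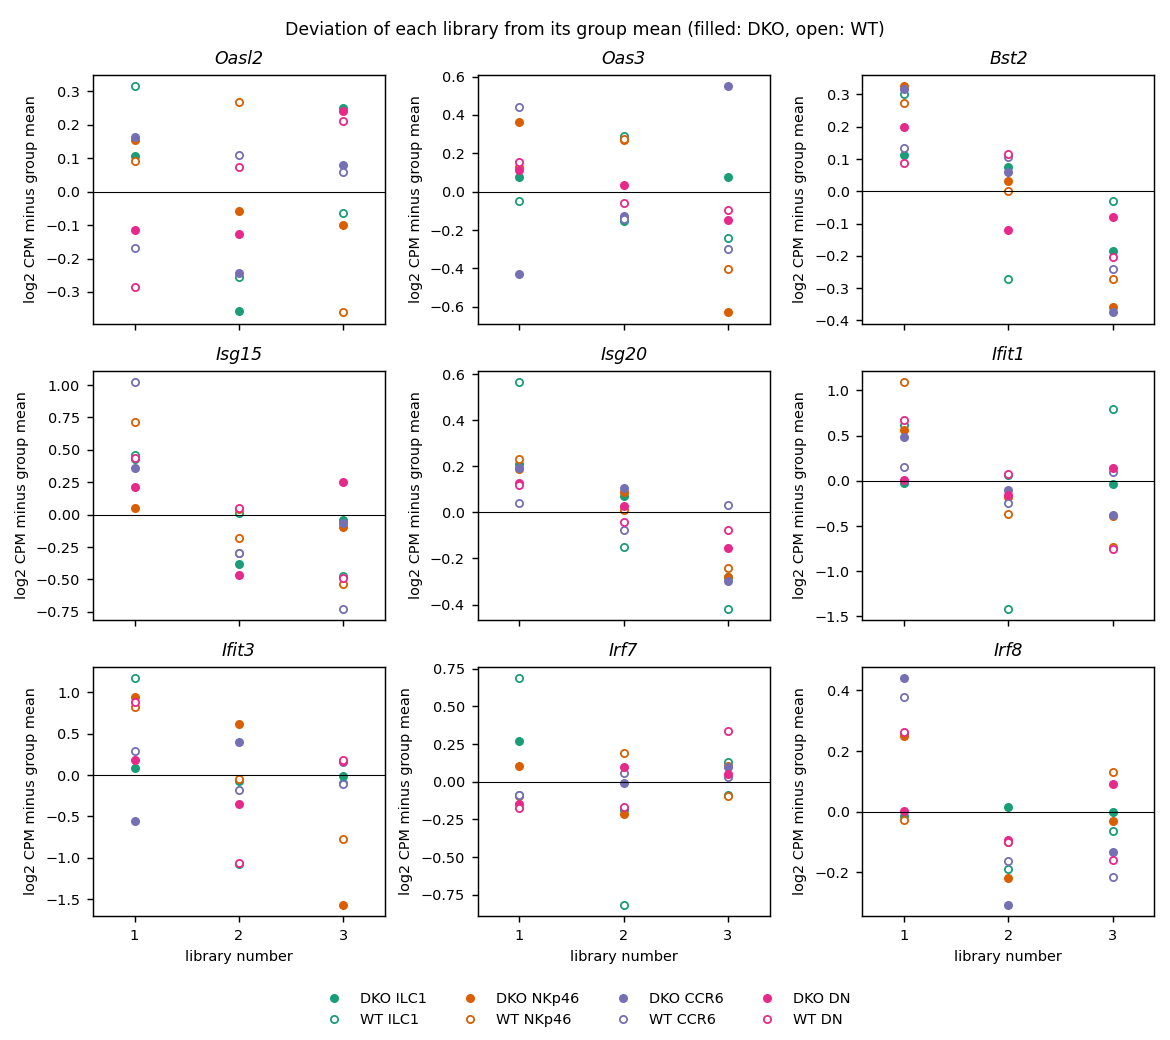
Deviation of each library from its group mean on the log2 CPM scale (y axis), by the library number in the labels (x axis), for the 9 genes, where filled points are DKO, open points are WT and the colour is the population. The points of number 1 lie highest for Isg20 in 8 of 8 groups and for Bst2 and Isg15 in 7 of 8, whereas Oasl2 shows no such order.

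Cells of other types could add reads of these genes, so marker lists were set beside the results. In bulk libraries fewer cells of a type and less RNA per cell cannot be told apart. In DN, where Oas3 and Isg20 fell, 7 of 9 T cell markers fell too, among them Cd3e at 181 ± 28.9 CPM in DKO and 574 ± 16.8 CPM in WT libraries (SD, n = 3 each). The summed level of the 9 T cell markers was 1348 to 1554 CPM in DKO DN and 3009 to 3183 CPM in WT DN libraries, and no marker was at 0. The genes that followed Oas3 most closely were Inpp4b, Bcl11b, a factor of T cell development, and Klk8 (r = 0.91, 0.91 and 0.89, n = 24). This r over the 24 libraries mixes differences of genotype, population and library. The 8 epithelial markers summed to 40.7 to 56.3 CPM in DKO DN and 19.6 to 23.0 CPM in WT DN libraries. The part of these transcripts in the falls of Oas3 and Isg20 was not tested.

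In ILC1, where Oasl2 was higher, the 5 NK cell markers summed to 30.9 to 69.0 CPM in DKO and 142 to 189.9 CPM in WT libraries, and none was at 0. Of these sums Gzma, which was at 152 ± 33.2 CPM in WT DN cells too, made 52.7 ± 19.8 and 154 ± 29.5 CPM. Klra9 and Eomes averaged 1.99 and 0.441 CPM in DKO against 11.9 and 0.980 CPM in WT. Klra8 and Klra4 ran the other way, with means of 0.607 and 0.155 CPM in DKO against 0.00847 and 0.0384 CPM in WT. The 11 myeloid markers summed to 1188 to 1465 CPM in DKO ILC1 and 1510.0 to 2026 CPM in WT ILC1 libraries. Of these sums Fcer1g made 1002 ± 129 and 1213 ± 182 CPM, and Cst3 208 ± 17.1 and 233 ± 45.8 CPM. Fcer1g averaged 459 CPM or more in all 8 groups. The median log2 fold change of the 10 tested myeloid markers was -1.04 in ILC1. The 7 B cell and plasma cell markers summed to 75.9 to 156 CPM in DKO ILC1 and 62.6 to 76.6 CPM in WT ILC1 libraries, of which Jchain, the joining chain of secreted antibody, made 88.2 ± 40.9 and 23.3 ± 16.8 CPM (SD, n = 3 each). The epithelial markers summed to 31.0 to 94.6 CPM in DKO ILC1 and 67.6 to 68.1 CPM in WT ILC1 libraries. Of these sums Cdh1 made 29.1 ± 10.2 and 58.4 ± 1.79 CPM. Krt18 ran the other way, at 10.8 ± 12.6 and 4.02 ± 2.55 CPM, and the median log2 fold change of the list was 2.60. T cell markers summed to 1005 to 1194 CPM in DKO and 1187 to 1520.5 CPM in WT ILC1 libraries. Of these 9 markers edgeR called 1 lower, DESeq2 4 and limma voom 3. Of the tested NK cell, myeloid, B cell and plasma cell and epithelial markers, edgeR called 0 in ILC1. DESeq2 called 1 NK cell and 1 myeloid marker lower there, and limma voom 2 NK cell markers and 1 epithelial marker lower. The part of these markers in the Oasl2 difference was not tested.

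In NKp46, where Irf7 and Irf8 fell, 1 of 10 tested myeloid markers fell, Fcer1g at 608 ± 52.4 CPM in DKO and 952 ± 32.6 CPM in WT libraries. The 11 myeloid markers summed to 824 to 994 CPM in DKO NKp46 and 1225 to 1394 CPM in WT NKp46 libraries, none at 0, and Lyz2 averaged 6.54 CPM in DKO and 7.84 CPM in WT. Of the plasmacytoid dendritic cell list, Siglech was at 0 in all NKp46 libraries of both genotypes and Cox6a2 likewise. That list summed to 335 to 382 CPM in DKO NKp46 and 641 to 681 CPM in WT NKp46 libraries, of which Ccr9, also a gut homing receptor of lymphocytes, made 282 ± 29.2 and 589 ± 20.5 CPM. Pacsin1 of that list ran the other way, at 5.92 ± 1.98 CPM in DKO and 0.794 ± 1.09 CPM in WT. Of its 7 tested markers edgeR called 1 higher and 1 lower. The B cell marker Cd79b fell in NKp46 as well, at 55.8 ± 13.2 CPM in DKO and 98.1 ± 22.0 CPM in WT libraries, 1 of 5 tested markers of its list. Jchain and Cd79a ran the other way, at 37.4 ± 54.0 and 1.44 ± 1.65 CPM in DKO against 15.5 ± 7.63 and 0.541 ± 0.330 CPM in WT. The median log2 fold change of the tested markers of this list was 0.82. The B cell and plasma cell list summed to 65.9 to 144 CPM in DKO NKp46 and 89.3 to 137 CPM in WT NKp46 libraries. The part of such cells in the falls of Irf7 and Irf8 was not tested.

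In CCR6, where Bst2 and Irf8 fell, the myeloid list summed to 752 to 946 CPM in DKO and 1194 to 1544 CPM in WT libraries, with Fcer1g at 586 ± 79.5 CPM in DKO and 996 ± 135 CPM in WT. Cst3 made 268 ± 35.8 and 337 ± 37.9 CPM of these sums. Lyz2 averaged 3.55 CPM in DKO and 6.76 CPM in WT, and Csf1r 1.31 and 1.21 CPM. Of 10 tested myeloid markers 2 were called lower, and of 9 T cell markers 2. The B cell and plasma cell list summed to 41.0 to 56.1 CPM in DKO CCR6 and 101 to 197 CPM in WT CCR6 libraries, with Cd79b at 36.8 ± 1.53 CPM in DKO and 92.9 ± 4.37 CPM in WT. Pax5 averaged 0 CPM in DKO CCR6 and 0.0128 CPM in WT CCR6 libraries. The plasmacytoid dendritic cell list ran the other way, at 334 to 417 CPM in DKO CCR6 and 193 to 213 CPM in WT CCR6 libraries. Of these sums Pacsin1 made 197 ± 25.1 CPM in DKO and 39.8 ± 14.2 CPM in WT, Tcf4 96.8 ± 11.4 CPM in DKO and 113 ± 10.6 CPM in WT, and Cox6a2 was at 0 in both. The epithelial markers summed to 17.8 to 37.0 CPM in DKO CCR6 and 4.87 to 9.50 CPM in WT CCR6 libraries, and the NK cell markers to at most 0.0360 and 0.424 CPM. Of the epithelial sums Krt18 made 16.5 ± 6.43 CPM in DKO and 3.24 ± 1.32 CPM in WT. Siglech there was at 0.00549 CPM on average in DKO and at 0 in WT libraries. In all 4 populations Il23r, the interleukin 23 receptor gene of ILC3, fell as well. The part of these genes in the falls of Bst2 and Irf8 was not tested.

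The genes whose log2 CPM followed each member most closely over the 24 libraries were found by Pearson's r, which here mixes differences of genotype, population and library. For Oasl2 they were Lrrc6, Gng12 and Abi3bp (r = 0.95, 0.94 and 0.94, n = 24). For Bst2 they were Nfkb2, Nfkbie and Cd82 (r = 0.93, 0.93 and 0.92, n = 24), the first a subunit and the second an inhibitor of NF-kB. For Oas3 they were Inpp4b, Bcl11b and Klk8 (r = 0.91, 0.91 and 0.89, n = 24). For Irf8 they were Fcer1g, Ehd1 and Klrb1b (r = 0.92, 0.90 and 0.89, n = 24), and for Irf7 Mical1, Tpst2 and Pik3ap1 (r = 0.88, 0.87 and 0.86, n = 24). For Isg20 they were Gadd45b, Arpc1b and Gm14718 (r = 0.86, 0.86 and 0.84), for Ifit3 Ube2h, Coro1a and Hspbp1 (r = 0.87, 0.86 and 0.86) and for Ifit1 Atxn10, Cbfa2t3 and 1600014C10Rik (r = 0.79, 0.74 and 0.73). For Isg15 the closest were Fau and Rps6 (r = 0.81 and 0.78), which encode or yield ribosomal proteins. No member stood among the others' closest genes, since members were left out of this ranking.

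Of 70 other interferon-stimulated genes tested, 0 were called for ILC1, 3 higher for NKp46, 7 higher and 4 lower for CCR6 and 3 higher and 2 lower for DN. Of all tested genes, calls made up 1.06% for ILC1, 4.16% for NKp46, 3.97% for CCR6 and 2.83% for DN. The median log2 fold change of the 70 was 0.10 for ILC1, -0.05 for NKp46, -0.05 for CCR6 and -0.11 for DN. In ILC1 edgeR gave an unadjusted p under 0.05 to 5 of the 70, DESeq2 called 3 higher and limma voom called 0. The lists of other OAS and RNase L genes, other IFIT genes and MHC class I genes, with 7, 4 and 8 tested, had 0 calls in every population by edgeR, DESeq2 or limma voom. At an unadjusted p under 0.05 edgeR picked 2 OAS, 1 IFIT and 1 MHC class I gene in NKp46 and 1 IFIT gene in CCR6.

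The guanylate-binding and immunity-related GTPases, which attack the vacuoles of intracellular microbes and are known as targets of interferon gamma, held 5 of the 7 higher calls in CCR6 and 3 of 3 in DN, but 1 of 3 in NKp46. Of 14 tested, 0 were called for ILC1, 1 for NKp46, 5 for CCR6 and 3 for DN, all higher in DKO, against 0.780% of all tested genes called higher for ILC1, 1.99% for NKp46, 1.93% for CCR6 and 1.49% for DN. The median log2 fold change of the 14 was 0.21 for ILC1, -0.16 for NKp46, 0.11 for CCR6 and 0.28 for DN. Gbp8 was at 177 ± 17.3 CPM in DKO and 45.6 ± 8.93 CPM in WT CCR6 libraries, at 236 ± 12.0 and 74.0 ± 8.97 CPM in DKO and WT DN libraries, and at 166 ± 9.58 and 88.5 ± 13.3 CPM in DKO and WT NKp46 libraries. Its log2 fold changes were 1.95 ± 0.20, 1.67 ± 0.20 and 0.91 ± 0.19 (edgeR adjusted p = 9.4e-07, 1.0e-05 and 0.0066). Igtp was at 337 ± 38.7 CPM in DKO and 209 ± 14.0 CPM in WT CCR6 libraries (log2 fold change 0.69 ± 0.15, edgeR adjusted p = 0.0074). Gbp6 was at 81.4 ± 0.849 CPM in DKO and 37.5 ± 7.27 CPM in WT DN libraries (log2 fold change 1.12 ± 0.24, edgeR adjusted p = 0.0084). Gbp4 was at 114 ± 12.7 CPM in DKO and 58.9 ± 16.0 CPM in WT CCR6 libraries (log2 fold change 0.96 ± 0.22, edgeR adjusted p = 0.011). Ifng itself, the gene of interferon gamma, was at 5.54 ± 1.02 CPM in DKO and 1.56 ± 1.88 CPM in WT CCR6 libraries (log2 fold change 1.89 ± 0.50, edgeR adjusted p = 0.034), and was not called in the other populations.

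Of 37 other antiviral genes tested, 2 were called higher in NKp46, 2 higher and 4 lower in CCR6 and 2 lower in DN. Ube2l6, the conjugating enzyme that transfers ISG15, was at 59.0 ± 18.2 CPM in DKO and 18.8 ± 0.750 CPM in WT CCR6 libraries (log2 fold change 1.65 ± 0.28, edgeR adjusted p = 6.3e-04), and rose in NKp46 by 1.09 ± 0.28 (0.025). Isg15, its substrate, had not passed in either population. Cmpk2, a mitochondrial nucleotide kinase, was at 16.0 ± 0.884 CPM in DKO and 4.34 ± 0.797 CPM in WT CCR6 libraries (log2 fold change 1.88 ± 0.46, edgeR adjusted p = 0.018). Ifitm2, which blocks virus entry at endosomes, was at 0.879 ± 0.0648 CPM in DKO and 3.83 ± 1.23 CPM in WT CCR6 libraries (log2 fold change -2.12 ± 0.43, edgeR adjusted p = 0.0034). Epsti1 was at 58.1 ± 4.70 CPM in DKO and 93.2 ± 10.3 CPM in WT CCR6 libraries (log2 fold change -0.68 ± 0.15, edgeR adjusted p = 0.0076).

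Upstream of the members, Ifnar1, Ifnar2, Stat2 and Irf9 did not pass in any population with edgeR, nor did any other of the 5 tested receptor genes and 6 JAK-STAT genes. At an unadjusted p under 0.05 edgeR picked 1 receptor gene in ILC1 and 1 in CCR6, and 1 JAK-STAT gene in CCR6 and 1 in DN. DESeq2 called 1 receptor gene lower in ILC1, and DESeq2 and limma voom each called 1 JAK-STAT gene lower in CCR6. Of 6 other IRF genes, Irf5 was lower in NKp46, at 57.4 ± 17.9 CPM in DKO and 119 ± 15.6 CPM in WT libraries (log2 fold change -1.05 ± 0.26, edgeR adjusted p = 0.022), the population in which Irf7 and Irf8 fell. Of 13 tested sensors and adaptors, Ifih1, the RNA sensor MDA5, was lower in CCR6, at 22.4 ± 6.87 CPM in DKO and 44.9 ± 4.86 CPM in WT libraries (edgeR adjusted p = 0.037). Of 4 negative regulators, Socs3 was higher in NKp46, at 260.4 ± 5.61 CPM in DKO and 107 ± 21.1 CPM in WT libraries (log2 fold change 1.28 ± 0.17, edgeR adjusted p = 4.9e-05), and Usp18 did not pass in any population. Of 9 interferon genes on the list, the 8 of types I and III had too few reads to be tested.

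**Figure D5:**
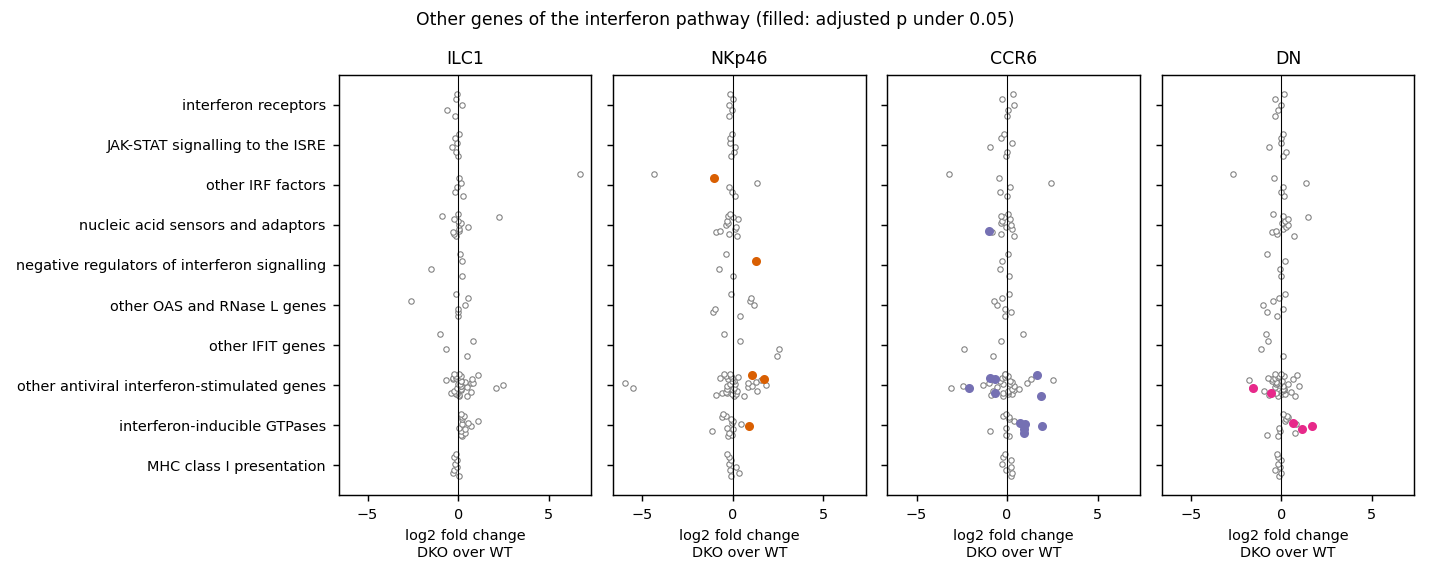
Log2 fold change, DKO over WT, of the other tested genes of the interferon pathway (x axis), 1 point per gene, by gene list (rows) and population (panels), where filled points have an edgeR adjusted p under 0.05. The filled points of the GTPases lie to the right of 0 in NKp46, CCR6 and DN, and the lists of receptors, JAK-STAT genes, OAS genes, IFIT genes and MHC class I genes have no filled point.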

How the data were processed

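Read counts per Ensembl gene were analysed from 24 libraries. The deposited table holds whole-number counts, not normalized, as its values show. The submitters' processing notes name mm10, STAR 2.7.9a, Subread, featureCounts 2.0.3, Salmon 1.5.2 and DESeq2, without saying which made the table. Per the labels, cDNA was made from 10 ng of RNA with a SMARTer kit, a type that does not mark strand, fragments were amplified in 12 to 15 cycles after adapter ligation, and no molecular identifiers are named. Of 55774 rows, 455 rows of 168 repeated IDs were reduced to 1 row per ID, which left 55487 genes. A column with the number of annotated transcripts per gene was not used.

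Libraries were scaled with TMM factors and low genes removed by filterByExpr on the groups (edgeR 4.0.16, R 4.3.3). CPM are counts per 1e+06 with these factors. A quasi-likelihood fit with 1 mean per group had 16 residual degrees of freedom and a common biological coefficient of variation of 0.573. Adjusted p-values are Benjamini-Hochberg over 21286 genes, and standard errors follow from the fold change and its F statistic. Exon lengths came from GENCODE annotation on GRCm38, promoters from RefSeq (GRCm38.p6, 9 of 9 genes matched), and shared sequence from BLAST+ 2.17.0. Alternatives were DESeq2 1.42.0, its size factors, limma 3.58.1 voom, no filter, each pair of groups alone, a replicate block, and each library left out.

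The members and gene lists were chosen with earlier results of these data known. All 9 members are named in every comparison, and from each pathway list up to 4 called genes with the smallest adjusted p, with receptor genes, Stat2, Irf9 and Usp18 always allowed. The 3 genes most like each member are those with the highest Pearson r of log2 CPM over 24 libraries. A few genes that these rules name are not reported here. Total counts of 12763228 to 84395154 per library gave each member at least 39 reads. Groups follow the labels.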

Additional observations from a re-analysis of the deposited data

Results flagged for a closer look

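The effect of the DKO label differed among the 4 populations, by the test that the 4 effects are equal, for Bst2 among the 9 genes, for 2 other pathway genes and for 4 other genes named above. Bst2 had an edgeR adjusted p of 0.0018, with a log2 fold change of -1.68 ± 0.20 in CCR6 and 0.15 ± 0.20 in ILC1. Socs3 had an edgeR adjusted p of 0.0041, with a log2 fold change of 1.28 ± 0.17 in NKp46 and -0.30 ± 0.17 in CCR6. Gbp8 had an edgeR adjusted p of 0.032, with a log2 fold change of 1.95 ± 0.20 in CCR6 and 0.71 ± 0.19 in ILC1. Nr1d1, one of the targeted genes, had an edgeR adjusted p of 0.022, with a log2 fold change of 2.34 ± 0.21 in ILC1 and 0.82 ± 0.20 in NKp46. Among the marker genes it was 0.006 for Ccr9 (-1.15 ± 0.21 in DN and 0.54 ± 0.21 in CCR6), 0.0067 for Cd3e (-1.67 ± 0.32 in DN and 0.96 ± 0.32 in NKp46) and 0.034 for Pacsin1 (2.31 ± 0.62 in CCR6 and -1.63 ± 0.65 in ILC1).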

How the results depend on the processing

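The DKO against WT calls of Oasl2 in NKp46, CCR6 and DN, Bst2 in CCR6 and Irf7 and Irf8 in NKp46 held under every alternative run. The number of the 9 genes called changed by more than 1.5 times as follows. Between WT ILC1 and WT NKp46 it was 2, and 4 with DESeq2, 1 with limma voom, 1 without the filter, 0 in the fit of those groups alone and 1 with the libraries numbered 2 and 3. For the difference of effects it was 1, and 2 with DESeq2 and with limma voom and a random replicate block, the second gene being Oas3. Between WT ILC1 and WT DN it was 1, and 2 without the filter. In ILC1 it was 1, and 0 in the fit of those groups alone. With the libraries numbered 2 and 3 it was 3 between WT NKp46 and WT CCR6 and 2 between WT NKp46 and WT DN, against 5 each. Smaller shifts gave up to 7 for WT NKp46 against WT DN, 6 for WT NKp46 against WT CCR6, 4 to 6 for WT ILC1 against WT CCR6, 3 to 5 for WT CCR6 against WT DN, 2 to 4 for DKO against WT in DN and 3 to 4 in NKp46.

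With a single library left out the DKO against WT counts ran from 3 to 4 for NKp46, 2 to 3 for CCR6, 1 to 3 for DN and 1 to 1 for ILC1. Between WT groups they ran from 0 to 2 for ILC1 against NKp46, 5 to 6 for ILC1 against CCR6, 1 to 2 for ILC1 against DN, 3 to 5 for NKp46 against CCR6, 1 to 6 for NKp46 against DN and 3 to 5 for CCR6 against DN, and for the difference of effects from 1 to 1.

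Uncalled effects changed sign. Isg15 in ILC1 (-0.06) was 0.01 without the filter. Ifit1 in WT ILC1 against WT DN (-0.04) was 0.06 with limma voom, 0.06 with the random replicate block and 0.15 with the libraries numbered 2 and 3. With those libraries Irf7 in ILC1 was 0.05, Isg20 in CCR6 -0.03 and Oasl2 in WT ILC1 against WT DN -0.13. With a library left out, the DKO effect ran from -0.28 to 0.20 for Isg15, -0.52 to 0.17 for Irf7, -0.14 to 1.01 for Ifit3 and -0.09 to 0.68 for Ifit1 in ILC1, from -0.12 to 0.22 for Bst2 and -0.15 to 0.80 for Ifit3 in NKp46, and from -0.05 to 0.18 for Isg20 in CCR6. Between WT groups Isg15 ran from -0.17 to 0.83 (ILC1 against CCR6), -0.37 to 0.11 (ILC1 against DN) and -0.95 to 0.06 (CCR6 against DN), Ifit3 from -0.09 to 1.19 (ILC1 against NKp46), -0.44 to 0.83 (ILC1 against DN) and -0.85 to 0.16 (NKp46 against DN), and Ifit1 from -0.39 to 0.38 (ILC1 against DN). The causes were not tested.

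Library numbers are shared between groups. Same-numbered libraries of one genotype correlated in their deviations at -0.03 to 0.08 over 36 pairs. Their median was 0.04, against -0.02 for other numbers. Those of one population gave -0.01 to 0.05 over 12 pairs, with medians of 0.01 and -0.01. Among 3 numbers, 21 of 24 libraries correlated best with their own within the genotype and 14 of 24 across genotypes. The numbers were not taken as pairs because the labels do not say that they pair animals. Whether same-numbered libraries share an animal or day was not tested, and the main test ignores any such pairing. A fixed replicate block called 2 genes between WT ILC1 and WT DN, and added calls for Isg20 in NKp46 (adjusted p = 0.0098) and Bst2 in DN (0.0089), and 4 more between WT groups: Isg20 in ILC1 against NKp46 (0.043), Bst2 in ILC1 against DN (0.0089), Isg15 in NKp46 against CCR6 (0.013) and Irf8 in CCR6 against DN (0.015). The fit of 2 groups alone was not run for the difference of effects. Ifit3 had the fewest reads, 39 in its lowest library.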
